A study of Hipposideros armiger and Mus musculus with 20 samples.

Results

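Pdhb, Dlat, Idh3a, Idh2, Dlst and Suclg2 are 6 nuclear genes for mitochondrial enzymes that carry carbon from pyruvate into the tricarboxylic acid (TCA) cycle and round it. They were taken by name from a table of 14871 genes, and all 6 were found and passed the filter on low values in both species. RNA was sequenced from fat of ICR mice (an outbred laboratory strain) and of wild type great roundleaf bats (Hipposideros armiger), each kept for 7 days at 10 °C or at 30 °C. Mouse groups were interscapular brown fat (iBAT) at 10 °C, iBAT at 30 °C, subcutaneous white fat (sWAT) at 10 °C and sWAT at 30 °C. Bat groups were iBAT at 10 °C, iBAT at 30 °C, sWAT at 10 °C, sWAT at 30 °C, intra-abdominal white fat (aWAT) at 10 °C and aWAT at 30 °C. Each of the 10 groups had 1 female and 1 male library, and neither the age of the animals nor whether a library held 1 animal or a pool is given in the sources used here.

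The pyruvate dehydrogenase complex turns pyruvate from glycolysis into acetyl-CoA, and its kinases and phosphatases switch it off and on. The TCA cycle burns acetyl-CoA from pyruvate and from fatty acids and passes the electrons to the respiratory chain. In brown fat, which is rich in mitochondria, uncoupling protein 1 lets that chain run without making ATP, so that the fuel is given off as heat.

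Levels are FPKM (fragments mapped to a gene, scaled to its transcript's length and the library's mapped fragments), and values are given for the female and then the male library. Changes are differences of log2(FPKM + 1) ± standard error between groups of 2 libraries, less the median change of all genes tested. That median was −0.30 for the cold in mouse iBAT, −0.37 in mouse sWAT, −0.10 in bat iBAT, 0.07 in bat sWAT and −0.14 in bat aWAT. Adjusted p-values are from limma with Benjamini-Hochberg adjustment over 10689 mouse or 11025 bat genes, without that shift, and a gene was called at an adjusted p under 0.05. Nothing in the labels beyond the sex says that the libraries of a group came from separate animals, so the p-values measure the spread between libraries. An exact two-sided permutation test of 2 libraries against 2 cannot go below p = 0.333 and was not used.

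Summed FPKM ran between 263338 and 305098 in the mouse and between 294103 and 358510 in the bat libraries, and the total of reads was unknown. Ucp1, the uncoupling protein, was at 3688 and 5119 FPKM in cold mouse iBAT against 192 and 49.9 FPKM in warm iBAT. In sWAT it was at 1229 and 2977 FPKM in the cold against 1.19 and 1.53 FPKM in the warm. In bat iBAT it was at 10404 and 7239 FPKM in the cold against 2886 and 2670 FPKM in the warm. In bat aWAT it was at 7184 and 2939 FPKM in the cold against 3.18 and 2.67 FPKM in the warm. In bat sWAT it stayed near 1 FPKM or below at both temperatures (0.826 and 1.20 in the cold, 0.41 and 0.57 in the warm). Summed FPKM of 15 skeletal muscle genes was 31.2 and 1250 in cold against 2647 and 2078 in warm mouse iBAT, and 38.0 and 2338 in cold against 70.9 and 34.7 in warm mouse sWAT. In the bat it was 386 and 768 in cold sWAT against 19.2 and 4.77 in warm sWAT, and at most 8.65 in every iBAT and aWAT library. Summed FPKM of 9 B and T lymphocyte genes was 1292 and 32.7 in cold against 12276 and 2533 in warm mouse sWAT. Adipoq, the fat cell hormone adiponectin, was at 144 to 1716 FPKM in the 20 libraries. In bulk tissue, fewer cells of a type and less RNA per cell cannot be told apart.

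In the GENCODE M21 annotation of mouse build GRCm38, Pdhb (ENSMUSG00000021748) lies on chromosome 14 (8165996 to 8173025, minus strand). Dlat (ENSMUSG00000000168) and Idh3a (ENSMUSG00000032279) both lie on chromosome 9, Dlat at 50634633 to 50659780 on the minus strand and Idh3a at 54586334 to 54604661 on the plus strand. Idh2 (ENSMUSG00000030541) lies on chromosome 7 (80094846 to 80115392, minus strand). Dlst (ENSMUSG00000004789) lies on chromosome 12 (85110833 to 85134845, plus strand). Suclg2 (ENSMUSG00000061838) lies on chromosome 6 (95473009 to 95718800, minus strand). The bat rows carry the same mouse identifiers, and how bat reads were assigned to them is not given in the sources used here. Levels are therefore not compared between species, and levels of different bat genes only with that reserve.

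In mouse iBAT, the cold raised the 2 pyruvate dehydrogenase members and lowered Idh2, while Idh3a, Dlst and Suclg2 were not called. Pdhb, the beta subunit of the complex's first enzyme (E1), was at 413 and 430 FPKM in cold iBAT against 127 and 106 FPKM in warm iBAT. Both cold libraries stood well above both warm ones, and Pdhb rose by 2.15 ± 0.21 (limma adjusted p = 0.0112). Dlat, the acetyltransferase (E2) that forms the complex's core, was at 239 and 255 FPKM in the cold against 103 and 108 FPKM in the warm. The sexes lay close together at each temperature, and Dlat rose by 1.52 ± 0.30 (limma adjusted p = 0.0460). Of the 6 members, 2 were called higher and 1 lower, against 12.8% of all genes called, 2.63% higher and 10.2% lower. Over all genes there were 281 higher and 1088 lower calls, but 638 and 359 with median-ratio scaling and 312 and 191 with quantile normalization.

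Idh3a, the catalytic alpha subunit of the NAD-dependent isocitrate dehydrogenase of the cycle, was at 575 and 613 FPKM in cold iBAT against 464 and 432 FPKM in warm iBAT. The groups did not overlap but lay close (0.70 ± 0.36, limma adjusted p = 0.470). Dlst, the succinyltransferase (E2) of the oxoglutarate dehydrogenase complex, was at 565 and 500 FPKM in the cold against 322 and 286 FPKM in the warm (1.10 ± 0.23, limma adjusted p = 0.0670). Both cold libraries were above both warm ones. Suclg2, the beta subunit of the GTP-forming succinyl-CoA ligase, was at 39.3 and 33.0 FPKM in the cold against 32.6 and 26.5 FPKM in the warm. The lower cold library lay just above the higher warm one (0.58 ± 0.19, limma adjusted p = 0.335).

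Idh2, the NADP-dependent isocitrate dehydrogenase of mitochondria, which makes NADPH there, went the other way. It was at 132 and 115 FPKM in cold iBAT against 427 and 387 FPKM in warm iBAT. Both sexes were far lower in the cold, and Idh2 fell by 1.41 ± 0.35 on the log2 scale (limma adjusted p = 0.0319). Of 6 macrophage genes, 3 were called lower in cold iBAT and 4 had an unadjusted p under 0.05. Their median was −0.41 and none was at 0, with sums of 21.5 to 22.4 FPKM in the cold against 38.1 to 42.7 FPKM in the warm, and their part in the members' changes was not tested. Skeletal muscle genes had lower sums in the cold iBAT libraries, with 0 of 15 called by limma and 1 at an unadjusted p under 0.05, a median of −3.49, and Actn3 and Cacna1s at 0 in the cold female library. Both cold libraries, with muscle sums of 31.2 and 1250, lay below both warm ones, so muscle content and temperature cannot be told apart. With the muscle sum as a covariate, a choice made after seeing the data, Idh2 was at −1.02 ± 0.38 (limma adjusted p = 0.0624). In that fit 1 of the 6 members, Pdhb (2.31 ± 0.25), was called.

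Pdhb stayed called in iBAT under every other scaling, pseudocount and filter tried. Dlat lost its call with a pseudocount of 0.1, with no filter and with quantile normalization. Idh2 lost its call with median-ratio scaling (−1.26) and quantile normalization (−1.54). Dlst gained a call with median-ratio scaling (1.26 ± 0.28, limma adjusted p = 0.0480). No member was called without any 1 of the 4 iBAT libraries, where limma called 1 or 2 genes in all.

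Pdha1 and Pdhx, further subunits of pyruvate dehydrogenase, rose with Pdhb and Dlat in mouse iBAT, while Dld and the cycle's own enzymes were not called. Of the 5 subunits, 4 were called higher, with a median of 1.52. Pdhx, which tethers the third enzyme (E3) to the core, was at 87.9 and 91.5 FPKM in the cold against 33.3 and 35.4 FPKM in the warm (1.66 ± 0.27, limma adjusted p = 0.0295). Pdha1, the E1 alpha subunit that is the target of the kinases, was at 999 and 884 FPKM against 498 and 510 FPKM (1.19 ± 0.20, limma adjusted p = 0.0387). Dld, the E3 shared with other dehydrogenase complexes, was just short of a call (1.25 ± 0.27, limma adjusted p = 0.0617). Of 16 TCA cycle enzymes, limma and limma-trend called 0, with a median of 0.52, and 1 had an unadjusted p under 0.05. Of these enzymes at least Dlst was called with median-ratio scaling. With quantile normalization 1 of the 5 subunits was called, with the muscle sum as a covariate 2 were, and without any 1 iBAT library 0 were.

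Among 6 regulators of the complex, the phosphatase gene Pdp2 rose in cold mouse iBAT. It was at 13.1 and 12.3 FPKM in the cold against 6.16 and 6.42 FPKM in the warm (1.20 ± 0.19, limma adjusted p = 0.0342). Pdp1, another such phosphatase, fell to 0.634 and 1.60 FPKM in the cold, against 4.00 and 3.80 FPKM in the warm (−0.95 ± 0.23, limma adjusted p = 0.0246). It lay under the 5 FPKM asked of named genes and was chosen after its values were seen. Pdk4, a kinase that switches the complex off, was at 298 and 606 FPKM in the cold against 590 and 725 FPKM in the warm (−0.32 ± 0.84), and its ranges overlapped.

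**Figure D1:**
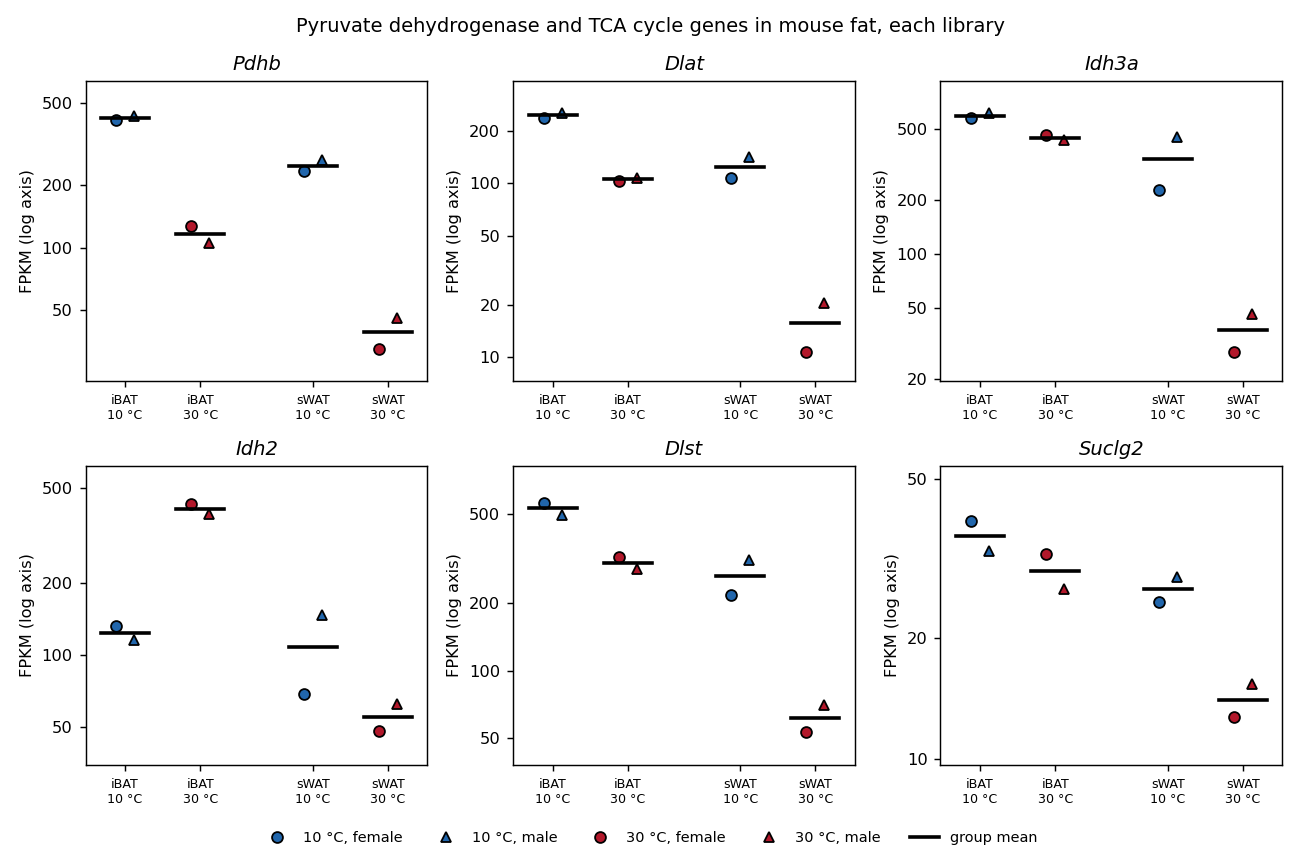
FPKM on a log axis of the 6 genes in each mouse library, by depot and temperature, with circles for female and triangles for male libraries and a bar at the group mean. Pdhb and Dlat are higher and Idh2 lower in cold than in warm iBAT, and all 6 genes are lowest in warm sWAT.

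Mouse sWAT gained most of the pathway in the cold: 5 of the 6 members were called higher. Over all genes 33.2% were called, 6.71% higher and 26.5% lower. Pdhb was at 235 and 264 FPKM in cold sWAT against 32.5 and 45.9 FPKM in warm sWAT (3.02 ± 0.21, limma adjusted p = 0.00425). Dlat was at 108 and 142 FPKM in the cold against 10.7 and 20.6 FPKM in the warm (3.34 ± 0.30, limma adjusted p = 0.00796). For both genes the sexes were close in the cold and the groups far apart.

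Idh3a was at 228 and 451 FPKM in cold sWAT against 28.4 and 46.3 FPKM in warm sWAT (3.48 ± 0.36, limma adjusted p = 0.00921). Its male library was the higher at each temperature, and the groups did not overlap. Dlst was at 218 and 312 FPKM in the cold against 53.1 and 70.3 FPKM in the warm (2.44 ± 0.23, limma adjusted p = 0.00884). Suclg2 was at 24.6 and 28.5 FPKM in the cold against 12.7 and 15.4 FPKM in the warm, a smaller rise (1.24 ± 0.19, limma adjusted p = 0.0229). Idh2 was the member not called, at 69.1 and 148 FPKM in the cold against 48.4 and 62.6 FPKM in the warm (1.23 ± 0.35, limma adjusted p = 0.0949). The female cold library was close to the male warm one, and the male cold library was well above.

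All 5 pyruvate dehydrogenase subunits and all 16 TCA cycle enzymes were called higher in cold mouse sWAT, with medians of 2.50 and 2.43. Sucla2, the beta subunit of the ATP-forming succinyl-CoA ligase, rose by 3.22 ± 0.36 (limma adjusted p = 0.0104). Among the regulators, Pdk4 was at 81.5 and 378 FPKM in the cold against 26.0 and 6.98 FPKM in the warm (3.96 ± 0.84, limma adjusted p = 0.0263). Pdp2 rose by 1.64 ± 0.19 and the kinase Pdk1 by 1.05 ± 0.17, while the kinase Pdk3 fell by 0.92 ± 0.19 on the log2 scale. Of 6 side route genes, Mdh1, the malate dehydrogenase of the cytosol (1.83 ± 0.19), Aco1, the aconitase of the cytosol (1.35 ± 0.30), and Idh1, the NADP-dependent isocitrate dehydrogenase of the cytosol (1.29 ± 0.24), rose. Me2, a malic enzyme of mitochondria, fell by 1.11 ± 0.24 on the log2 scale.

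Lymphocyte genes had 2 of 9 called lower in cold mouse sWAT and all 9 at an unadjusted p under 0.05, with a median of −3.23. Macrophage genes had 1 of 6 called lower and 4 at an unadjusted p under 0.05, with a median of −0.22. Muscle genes had 1 of 15 called higher and 1 at an unadjusted p under 0.05, with a median of 2.96. With the lymphocyte sum as a covariate, chosen after seeing the data, the 6 members had changes of 0.44 to 2.73, and 1, Pdhb, was called. Both cold libraries lay below both warm ones in that sum, so lymphocyte content and temperature cannot be told apart. Without the male cold library, which held the high muscle sum, 4 members were called, and without the female cold library 6 were. Without the female warm library, which held the highest lymphocyte sum, 2 members, 3 of the 5 subunits and 1 of the 16 cycle enzymes were called. Over all genes there were 717 higher and 2828 lower calls, but 1124 and 693 with median-ratio scaling and 1144 and 1234 with quantile normalization.

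Ratios within a library do not depend on its scale. The geometric mean FPKM of the 5 subunits over that of the 16 cycle enzymes was 0.665 and 0.671 in cold mouse iBAT against 0.331 and 0.324 in warm iBAT, so both cold values lay far above both warm ones, with little spread between the sexes. In sWAT it was 0.733 and 0.593 in the cold against 0.493 and 0.571 in the warm, where the groups lay close. Idh2 over Idh3a was 0.230 and 0.188 in cold iBAT against 0.918 and 0.896 in warm iBAT. In sWAT it was 0.302 and 0.328 in the cold against 1.70 and 1.35 in the warm, so the ratio was lower in the cold in both depots and both sexes. Suclg2 made up 7.25% and 6.68% of the FPKM of the 2 succinyl-CoA ligase beta subunits (Suclg2 and Sucla2) in cold iBAT against 6.74% and 6.76% in warm iBAT. In sWAT its share was 14.5% and 8.93% in the cold against 36.4% and 31.1% in the warm. The cold shares approached those of iBAT. Both cold libraries had lower muscle sums than both warm ones in iBAT, and lower lymphocyte sums in sWAT. Cell content and temperature therefore cannot be told apart in these ratios.

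**Figure D2:**
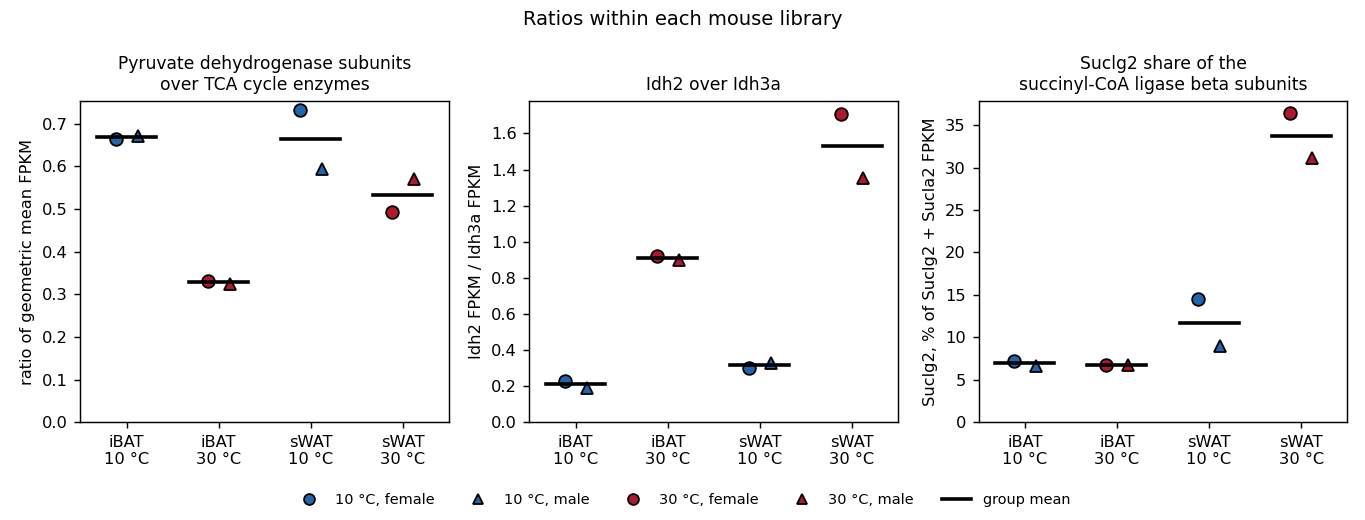
Ratios within each mouse library by depot and temperature, with circles for female and triangles for male libraries and a bar at the group mean. The left panel shows the pyruvate dehydrogenase subunits over the TCA cycle enzymes (geometric mean FPKM), the middle one Idh2 over Idh3a, and the right one the share of Suclg2 in percent. The first is higher in cold than in warm iBAT, and Idh2 over Idh3a is lower in the cold in both depots.

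The difference between the signed cold changes of mouse sWAT and iBAT was above 0 for all 6 members, Idh2 having opposite signs in the depots, but 0 differences were called by limma or limma-trend, and 5 had an unadjusted p under 0.05. The widest were those of Idh3a (2.75 ± 0.50) and Idh2 (2.62 ± 0.49), each with a limma adjusted p of 0.102. Over all genes 0.0374% were called in this comparison, 0.0281% higher and 0.00936% lower. Without the female cold sWAT library 4 members were called. Muscle genes (median 6.31) and lymphocyte genes (median −3.29) had 0 of 15 and 0 of 9 called in this comparison, each with 1 at an unadjusted p under 0.05.

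Between mouse depots at 30 °C, all 6 members were called higher in iBAT than in sWAT. Of all genes 58.6% were called, 10.7% higher and 48% lower, and their median change was −0.57 at 30 °C and −0.47 at 10 °C. Idh3a differed most (4.16 ± 0.36, limma adjusted p = 0.00149) and Suclg2 least (1.59 ± 0.19, limma adjusted p = 0.00536). At 10 °C, Dlst (1.49 ± 0.23), Dlat (1.46 ± 0.30) and Pdhb (1.23 ± 0.21) were called higher in iBAT. Of all genes 29.7% were called, 2.3% higher and 27.4% lower. Idh3a (1.35 ± 0.36), Suclg2 (0.90 ± 0.19) and Idh2 (0.75 ± 0.35) were not. The count at 10 °C was 5 with median-ratio scaling, 5 without the male cold sWAT library, and 0 without any 1 of the other 3 cold libraries. With sex within temperature as a block, a choice made after seeing the data, the count at 10 °C was 2, and Pdhb was not called (limma adjusted p = 0.0611). All 6 macrophage genes were called lower in iBAT at each temperature, and all 9 lymphocyte genes at 30 °C, against 0 of 9 at 10 °C. Muscle genes had 1 of 15 called higher at 30 °C, 6 at an unadjusted p under 0.05 and a median of 5.97. At 10 °C they had 0 of 15 called and a median of −0.24. With the muscle sum as a covariate, Dlat at 10 °C lost its call (1.49 ± 0.31, limma adjusted p = 0.0543). With the lymphocyte sum as a covariate, 3 members were called at 30 °C and 0 at 10 °C. Over all genes there were 1141 higher and 5128 lower calls at 30 °C and 246 and 2925 at 10 °C. Median-ratio scaling gave 2433 and 2201, and 1303 and 1004. Quantile normalization gave 2447 and 2375, and 743 and 629.

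In order of mean level over the 4 mouse groups, Pdhb ran from cold iBAT (422 ± 11.7 FPKM, SD, n = 2) through cold sWAT (249 ± 20.6) and warm iBAT (116 ± 14.9) to warm sWAT (39.2 ± 9.47), with no overlap between neighbours. Dlat had the same order, but its female cold sWAT library (108.1 FPKM) lay barely above its male warm iBAT library (107.7 FPKM). Idh3a, Dlst and Suclg2 had cold iBAT first and then warm iBAT, whose range overlapped with that of cold sWAT. Idh2 had warm iBAT first (407 ± 27.9 FPKM), and its cold iBAT (124 ± 12.0 FPKM) and cold sWAT (108 ± 55.7 FPKM) ranges overlapped. All 6 had their lowest mean in warm sWAT.

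In bat iBAT, every member had a higher mean in the cold, and 1 of 6, Suclg2, was called, against 1.94% of all genes called, 1.07% higher and 0.871% lower. Suclg2 was at 15.8 and 20.3 FPKM in cold iBAT against 6.32 and 9.15 FPKM in warm iBAT (1.24 ± 0.24, limma adjusted p = 0.0479). Dlst was at 574 and 622 FPKM in the cold against 199 and 282 FPKM in the warm, just short of a call (1.43 ± 0.29, limma adjusted p = 0.0502). For both genes the cold libraries stood well apart from the warm ones. Pdhb was at 446 and 374 FPKM in the cold against 178 and 226 FPKM in the warm (1.13 ± 0.32, limma adjusted p = 0.130).

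Dlat was at 53.9 and 39.6 FPKM in cold bat iBAT against 18.9 and 28.0 FPKM in warm iBAT (1.07 ± 0.31, limma adjusted p = 0.138). Idh3a was at 1644 and 1255 FPKM in the cold against 825 and 1020 FPKM in the warm (0.75 ± 0.44, limma adjusted p = 0.449). Idh2 was at 102 and 142 FPKM in the cold against 63.5 and 70.0 FPKM in the warm (0.94 ± 0.38, limma adjusted p = 0.259). An unadjusted p under 0.05 was found for 4 of the 6 genes, against 2126 of all 11025 genes. The call of Suclg2 was lost with a pseudocount of 0.1, with no filter and without any 1 of the 4 iBAT libraries. Suclg2 and Dlst were both called by limma-trend and with sex as a term. Over all genes there were 118 higher and 96 lower calls, and 143 and 56 with median-ratio scaling.

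Of the 5 pyruvate dehydrogenase subunits limma and limma-trend called 0 in cold bat iBAT, with a median of 1.07, and 4 had an unadjusted p under 0.05. Pdha1 had the smallest change of them, with 354 and 372 FPKM in the cold against 340 and 316 FPKM in the warm (0.25 ± 0.21). Of the 16 TCA cycle enzymes 1, Suclg2, was called, with a median of 0.85. The kinase Pdk3 was the regulator called, with 3.80 and 3.09 FPKM in the cold against 0.707 and 0.948 FPKM in the warm (1.38 ± 0.24, limma adjusted p = 0.0330). It lay under the 5 FPKM asked of named genes and was chosen after its values were seen.

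In bat aWAT, the cold raised 5 of the 6 members, against 14.8% of all genes called, 8.33% higher and 6.49% lower. Pdhb was at 368 and 234 FPKM in cold aWAT against 45.5 and 77.9 FPKM in warm aWAT (2.42 ± 0.32, limma adjusted p = 0.00224). Dlat was at 47.5 and 30.8 FPKM in the cold against 7.00 and 12.0 FPKM in the warm (2.08 ± 0.31, limma adjusted p = 0.00422). In both genes the female library was the higher in the cold and the male library the higher in the warm, and the groups stood far apart.

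Idh3a was at 1344 and 839 FPKM in cold bat aWAT against 172 and 417 FPKM in warm aWAT (2.12 ± 0.44, limma adjusted p = 0.0170). Dlst was at 550 and 363 FPKM in the cold against 63.1 and 103 FPKM in the warm (2.59 ± 0.29, limma adjusted p = 0.00108). Idh2 was at 91.6 and 63.1 FPKM in the cold against 22.8 and 36.1 FPKM in the warm (1.51 ± 0.38, limma adjusted p = 0.0380). Each had the same pattern of sexes as Pdhb and no overlap between temperatures. Suclg2 was not called, at 19.8 and 19.1 FPKM in the cold against 10.7 and 13.7 FPKM in the warm (0.77 ± 0.24, limma adjusted p = 0.0969). Without the female warm library, or without the female cold library, 3 members were called. The call of Idh2 was lost with a pseudocount of 0.1, with no filter and with quantile normalization (limma adjusted p = 0.0591, 0.0677 and 0.0588).

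All 5 subunits of pyruvate dehydrogenase were called higher in cold bat aWAT, with a median of 2.31, as were 13 of the 16 TCA cycle enzymes, with a median of 2.02. Beside Suclg2, Sdhd, a membrane anchor of succinate dehydrogenase (1.47 ± 0.43, limma adjusted p = 0.0634), and Mdh2, the malate dehydrogenase of mitochondria (1.20 ± 0.32, limma adjusted p = 0.0506), missed the call. Sucla2 was at 545 and 366 FPKM in the cold against 69.6 and 115 FPKM in the warm (2.44 ± 0.27, limma adjusted p = 0.00108). Among 6 regulators, Pdk4 (2.56 ± 0.55), Pdp2 (2.11 ± 0.23) and Pdpr, a regulatory subunit of the phosphatase (1.41 ± 0.22), rose. Pdk3, under 5 FPKM and chosen after its values were seen, rose as well (1.04 ± 0.24). Of the 6 side route genes Mdh1 rose beside Idh2 (2.34 ± 0.24). Over all genes there were 918 higher and 716 lower calls, and 1045 and 454 with median-ratio scaling. The muscle sum was 5.49 and 8.63 in the cold aWAT libraries.

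In bat sWAT, 0 of the 6 members were called by limma or limma-trend, and 0 had an unadjusted p under 0.05. Of all genes 1.08% were called, 1.02% higher and 0.0635% lower. Pdhb was at 72.0 and 58.9 FPKM in cold sWAT against 38.6 and 57.2 FPKM in warm sWAT (0.39 ± 0.32). Dlst was at 101 and 95.9 FPKM in the cold against 67.1 and 83.6 FPKM in the warm (0.32 ± 0.29). In both genes the groups did not overlap but lay close.

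Dlat was at 9.80 and 8.00 FPKM in cold bat sWAT against 7.08 and 8.69 FPKM in warm sWAT (0.09 ± 0.31). Idh3a was at 286 and 284 FPKM in the cold, between the 178 and 369 FPKM of the warm (0.08 ± 0.44). Idh2 was at 36.4 and 37.9 FPKM in the cold, also between the 16.4 and 38.6 FPKM of the warm (0.47 ± 0.38). Suclg2 was at 9.28 and 12.6 FPKM in the cold against 8.19 and 9.90 FPKM in the warm (0.17 ± 0.24). The groups of these 4 genes overlapped. Of the 5 subunits and 16 cycle enzymes limma called 0 and 0, with medians of 0.17 and 0.11, and 0 had an unadjusted p under 0.05. Skeletal muscle genes, with 12 of 14 tested called higher, a median of 4.09 and none at 0 in the cold libraries, moved with the temperature in bat sWAT. Of 6 macrophage genes 0 were called there, but all 6 had an unadjusted p under 0.05, with a median of 1.06. The part of either list in the members' levels was not tested.

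**Figure D3:**
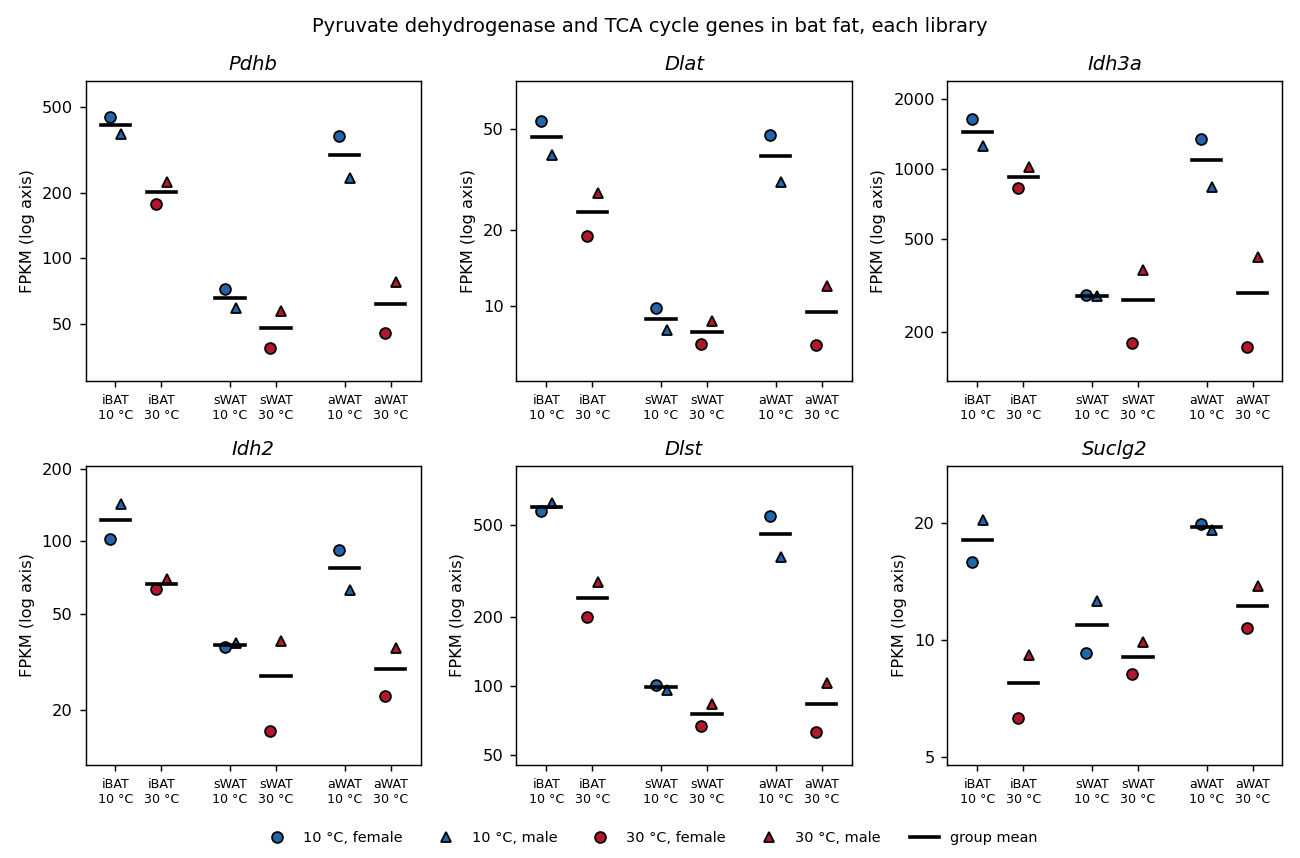
FPKM on a log axis of the 6 genes in each bat library, by depot and temperature, with circles for female and triangles for male libraries and a bar at the group mean. Cold aWAT lies above warm aWAT for all 6 genes, and cold and warm sWAT lie close together.

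The ratio of Pdhb to Pdha1, the 2 subunits of E1, was higher in the cold in every depot. It was 1.26 and 1.01 in cold bat iBAT against 0.522 and 0.715 in warm iBAT, and 1.15 and 0.943 in cold aWAT against 0.477 and 0.552 in warm aWAT. In bat sWAT it was 0.915 and 0.766 in the cold against 0.426 and 0.641 in the warm. In the mouse it was 0.414 and 0.487 in cold iBAT against 0.255 and 0.208 in warm iBAT, and 0.591 and 0.608 in cold sWAT against 0.415 and 0.409 in warm sWAT. The ratio was examined after the values were seen, was not tested and was not set against those of other gene pairs. Depots are not independent here, since libraries of 1 sex and temperature deviated together (correlations of 0.26 to 0.547).

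Between bat depots at 30 °C, 5 members were called higher in iBAT than in sWAT (1.44 to 2.14), and Suclg2 was not (−0.15 ± 0.24). Of all genes 23.8% were called, 10.9% higher and 12.9% lower. At 10 °C all 6 were called higher, with Pdhb (2.89 ± 0.32) and Dlst (2.85 ± 0.29) differing most and Suclg2 least (0.94 ± 0.24). Of all genes 39.7% were called, 13% higher and 26.7% lower. All genes shifted by a median of −0.07 at 30 °C and −0.26 at 10 °C. The call of Suclg2 at 10 °C was lost with a pseudocount of 0.1, with no filter and without any 1 of the 4 libraries, where 5 members were called. Of 14 muscle genes, 13 were called lower and 1 higher in iBAT at 10 °C, with all 6 macrophage, all 3 lymphocyte and 2 of 3 epithelial genes called lower. At 30 °C, 4 of 6 macrophage genes and 1 of 14 muscle genes were called lower. Fat cell genes had 2 of 6 called lower and 1 higher at each temperature.

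Against aWAT at 30 °C, Idh3a (1.93 ± 0.44), Pdhb (1.88 ± 0.32), Dlst (1.70 ± 0.29) and Dlat (1.39 ± 0.31) were called higher in bat iBAT. Idh2 was just short (1.34 ± 0.38, limma adjusted p = 0.0521), and Suclg2 was not called (−0.46 ± 0.24). With sex within temperature as a block both were called, Idh2 higher (limma adjusted p = 0.0184) and Suclg2 lower (limma adjusted p = 0.0260). Of all genes 19.9% were called, 7.51% higher and 12.4% lower. Of the markers, 4 of 6 macrophage genes and 1 of 3 lymphocyte genes were called lower. So were 2 of 6 fat cell genes, with 1 called higher. At 10 °C, 0 members were called between iBAT and aWAT by limma or limma-trend, and 0 had an unadjusted p under 0.05, with changes between 0.03 and 0.80. Of all genes 0.907% were called there, 0.2% higher and 0.707% lower.

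Between bat aWAT and sWAT at 30 °C, limma and limma-trend called 0 members and 0 had an unadjusted p under 0.05 (−0.02 to 0.31). Of all genes 0.916% were called, 0.689% higher and 0.227% lower. At 10 °C, 5 members were called higher in aWAT (0.89 to 2.27), and Idh2 was not (1.11 ± 0.38, limma adjusted p = 0.0828). With sex within temperature as a block Idh2 was called too (limma adjusted p = 0.0312). Of all genes 21.7% were called, 10.2% higher and 11.5% lower. Of the markers, 13 of 14 muscle genes, 5 of 6 macrophage genes and 1 of 3 epithelial genes were called lower in aWAT at 10 °C. So were 2 of 6 fat cell genes, with 1 called higher. The part of any of these lists in the differences between depots was not tested.

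Some of these depot counts rested on single libraries. For iBAT against sWAT at 30 °C, 2 members were called without the female warm sWAT library and 2 without the male warm iBAT library. For iBAT against aWAT at 30 °C, 2 were called without the female warm aWAT library and 2 without the male warm iBAT library. For aWAT against sWAT at 10 °C, 3 were called without the female cold aWAT library and 3 without either cold sWAT library. Over all genes, iBAT against sWAT at 10 °C gave 1432 higher and 2940 lower calls, but 2075 and 1996 with median-ratio scaling and 2006 and 2015 with quantile normalization. For iBAT against aWAT at 30 °C the calls were 828 and 1363, but 1050 and 994, and 1076 and 1093. For aWAT against sWAT at 30 °C they were 76 and 25, but 62 and 37 with quantile normalization.

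In order of mean level over the 6 bat groups, Pdhb, Dlat, Idh3a, Idh2 and Dlst all ran cold iBAT, cold aWAT, warm iBAT, and then the other 3 groups, with warm sWAT last. For Pdhb and Dlst the first 3 groups did not overlap with their neighbours, while for Idh3a they overlapped. The last 3 groups overlapped for Pdhb, Dlat, Idh3a and Dlst. Suclg2 had another order, with cold aWAT (19.5 ± 0.52 FPKM, SD, n = 2) and cold iBAT (18.1 ± 3.19 FPKM) overlapping at the top and warm iBAT (7.73 ± 2.00 FPKM) lowest.

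No member's cold change was called different between bat depots. For aWAT over iBAT, limma and limma-trend called 0 and 2 had an unadjusted p under 0.05, with 0.245% of all genes called, all of them higher. For sWAT over iBAT, limma and limma-trend called 0 and 2 had an unadjusted p under 0.05, with 0.608% of all genes called (0.562% higher and 0.0454% lower). Dlst differed by 1.14 ± 0.41 and by −1.11 ± 0.41 in these comparisons (limma adjusted p = 0.363 and 0.418).

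**Figure D4:**
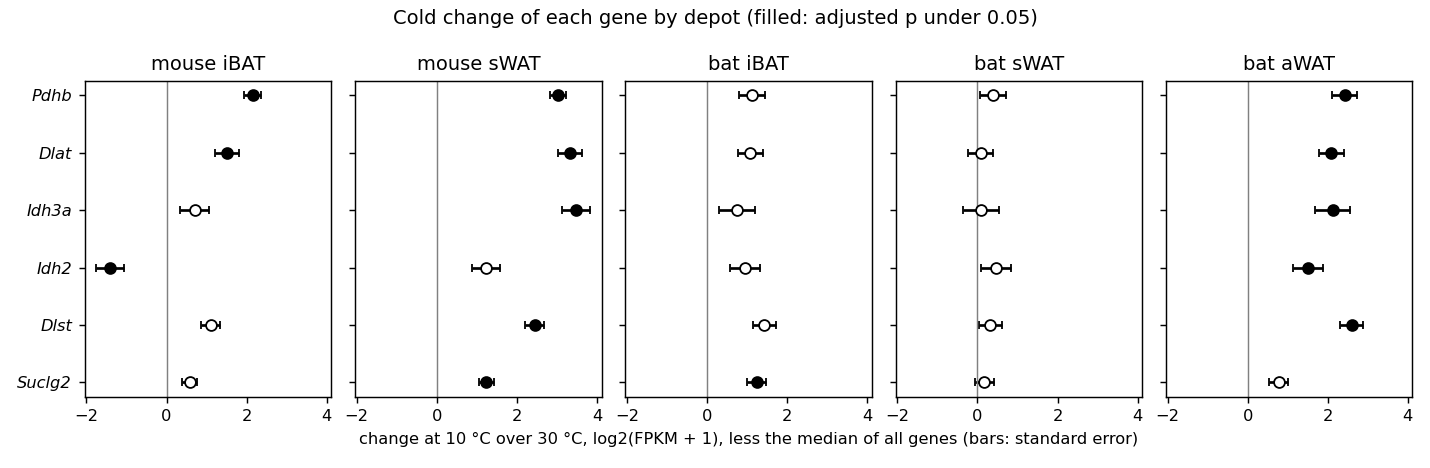
Cold change of the 6 genes in each depot (10 °C over 30 °C, log2(FPKM + 1), less the median of all genes), with bars of 1 standard error and filled points for an adjusted p under 0.05. Mouse sWAT and bat aWAT have 5 filled points each, bat sWAT has none, and Idh2 in mouse iBAT is the point below 0.

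The median difference of all genes between the cold changes of bat and mouse was 0.21 in iBAT and 0.42 in sWAT. The cold change of Idh2 in iBAT, less that shift, was higher in the bat than in the mouse (2.34 ± 0.55, limma adjusted p = 0.0215, over 9400 genes in both). It was the 1 member called, against 4.15% of all genes, 3.18% higher and 0.968% lower. In the bat it was 0.94 ± 0.38 and in the mouse −1.41 ± 0.35. The call was lost with median-ratio scaling (2.27), with quantile normalization (2.25), without any 1 mouse iBAT library, and without the female warm or the male cold bat iBAT library. In sWAT, 4 members had a lower cold change in the bat than in the mouse, against 21.5% of all genes called, 17% higher and 4.57% lower. These were Idh3a (−3.38 ± 0.62, limma adjusted p = 0.00864), Dlat (−3.24 ± 0.45, limma adjusted p = 0.00291), Pdhb (−2.61 ± 0.41, limma adjusted p = 0.00540) and Dlst (−2.11 ± 0.39, limma adjusted p = 0.0119). Suclg2 (−1.05 ± 0.31) and Idh2 (−0.75 ± 0.55) were not called.

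All 5 pyruvate dehydrogenase subunits and 14 of the 16 cycle enzymes had a lower cold change in bat than in mouse sWAT, with medians of −2.61 and −2.19. In the same comparison 5 of 6 macrophage genes (median 1.32) and 3 of 3 lymphocyte genes (median 5.44) had a cold change called higher in the bat, and muscle genes 0 of 14 (median 1.52). In the iBAT comparison muscle genes had 0 of 14 called, 2 at an unadjusted p under 0.05 and a median of 3.52. Macrophage genes had 0 of 6 called there, 2 at an unadjusted p under 0.05 and a median of 0.66. The part of these lists in the differences between species was not tested. Over all genes, calls for iBAT were 299 higher and 91 lower, but 179 and 201 with median-ratio scaling and 96 and 119 with quantile normalization. For sWAT they were 1594 and 430, but 411 and 690, and 569 and 739.

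**Figure D5:**
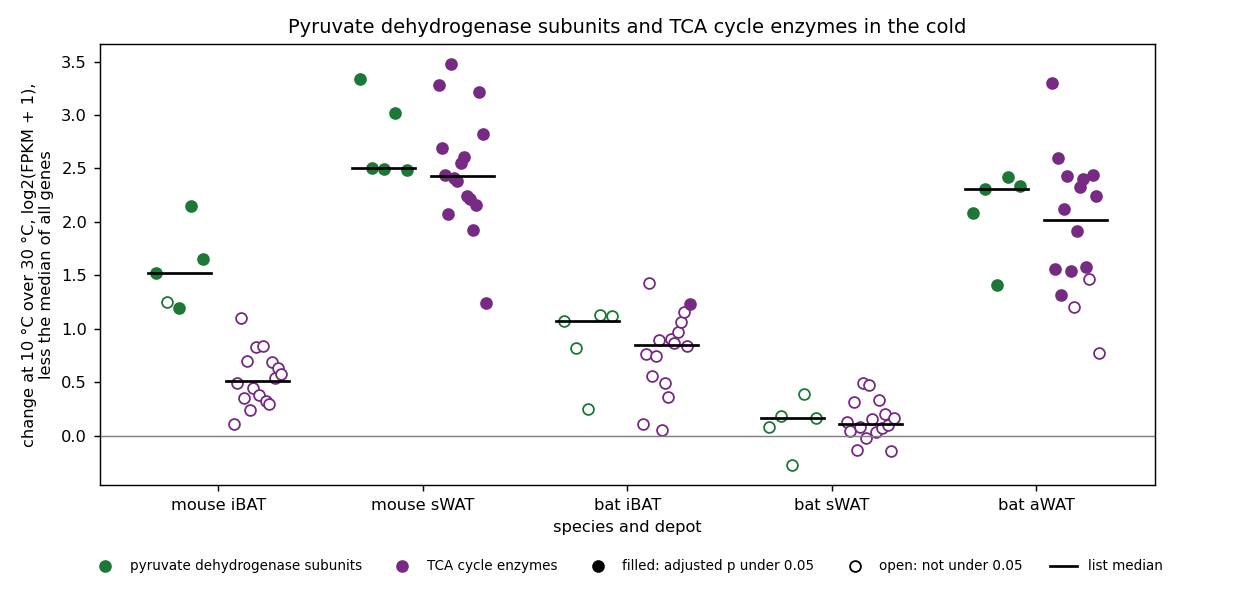
Cold change of the 5 pyruvate dehydrogenase subunits (green) and the 16 TCA cycle enzymes (purple) in each depot, on the same scale, with filled points for an adjusted p under 0.05 and lines at list medians. In mouse iBAT the subunits (median 1.52) lie above the cycle enzymes (median 0.52), while in mouse sWAT and bat aWAT both medians are at 2.02 or above.

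Levels of the members over all libraries of a species are described next, as correlations of log2(FPKM + 1) across libraries that share depots and temperatures. Over the 8 mouse libraries, Pearson's r between Idh2 and the other members was 0.27 to 0.70, and 0.87 to 0.99 among the other 5. Over the 12 bat libraries it was Suclg2 that stood apart, with r of 0.51 to 0.65 against 0.92 to 0.99 among the other 5. The gene most like Idh3a in the mouse was Cs, citrate synthase, the cycle's entry enzyme (r = 0.999). For Dlst it was Uqcrc2, a core subunit of respiratory complex III (0.999), for Dlat it was Acacb, an acetyl-CoA carboxylase (0.997), and for Pdhb it was Rmdn3 (0.994). For Suclg2 it was Tmem70, an assembly factor of the ATP synthase (0.994), and for Idh2 it was Tmem201 (0.992). In the bat, the most alike were Gm10039 and then Got1, an aspartate aminotransferase of the cytosol, for Pdhb (0.996 each), Mtx1 of the outer mitochondrial membrane for Dlst (0.996) and Mrpl44 of the mitochondrial ribosome for Dlat (0.995). For Idh3a it was Mterf3, a regulator of mitochondrial transcription (0.988), for Idh2 the proteasome subunit Psmb2 (0.979) and for Suclg2 it was Gpr180 (0.936).

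No member was called different between male and female libraries. In mice limma and limma-trend called 0 of 6, and 0 had an unadjusted p under 0.05, with male minus female changes of 0.09 to 0.53 and 0.00936% of all genes called. In bats limma and limma-trend called 0 of 6, and 1, Suclg2 (0.28 ± 0.10, limma adjusted p = 0.318), had an unadjusted p under 0.05, with 0.0454% of all genes called.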

How the data were processed

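Adipose mRNA was sequenced in 8 mouse and 12 bat libraries. Total RNA came from a kit for fatty tissue, per the labels' protocols, and went into standard Illumina libraries. The authors deposited 1 table of FPKM values for 14871 genes under mouse Ensembl identifiers, of which 14723 matched a symbol in GENCODE M21. The submitters' processing notes name CASAVA 1.8. Not given in the sources used here are how reads were aligned and counted, on which genome build, whether strand was used, and how reads shared by gene copies and bat reads were assigned. Sequencing depth is unknown in absolute terms. Estimated from low values, relative depth was 0.949 to 1.107 in mouse libraries and 0.624 to 1.081 in bat libraries. Bat iBAT libraries had 0.624 to 0.738 and the other bat libraries 0.91 to 1.081, so depth differed between these depots.

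Values were taken as log2(FPKM + 1), which understates changes of low genes. Genes reaching 1 FPKM in 2 or more of a species' libraries were fitted with limma 3.58.1 in R 4.3.3, with 1 mean per group over all libraries of the species (9400 genes and both species for the comparison between them). Groups of 2 thus share 1 estimate of the spread, and libraries of different depots were taken as independent, although those of 1 sex and temperature deviated together (correlations of 0.26 to 0.547 over genes in 8 of 8 pairs of depots). Tests were two-sided, with Benjamini-Hochberg adjustment at 0.05, and were tested on simulated data. The members and gene lists were chosen with earlier results of these data known. Members were named in every comparison, with up to 3 called genes per list of at least 5 FPKM in a group and the gene most correlated with each member. Pdk2, Mpc1, Mpc2, Pcx, Got2 and Nnt were listed but not analysed here. Alternatives were a pseudocount of 0.1, no filter, median-ratio scaling, quantile normalization, limma-trend, sex as a term, leaving out each library, and, added after seeing the data, sex within temperature as a block between depots and muscle or lymphocyte gene sums as covariates in the mouse. Figures were drawn with matplotlib 3.10.9.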

Additional observations from a re-analysis of the deposited data

Results flagged for a closer look

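The cold change of Idh2 in iBAT differed between the species by a test of the difference itself, and was higher in the bat than in the mouse by 2.34 ± 0.55 (limma adjusted p = 0.0215). Both bat sexes were higher in the cold than in the warm, and both mouse sexes were lower. The call was lost with median-ratio scaling (limma adjusted p = 0.0597) and with quantile normalization (limma adjusted p = 0.0557). It also depended on single libraries (2.10 to 2.58 with a library left out). The bat change alone was not called (limma adjusted p = 0.259).

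In sWAT the same test gave a lower cold change in the bat than in the mouse for 4 members. The difference was −2.61 ± 0.41 for Pdhb (limma adjusted p = 0.00540) and −3.24 ± 0.45 for Dlat (limma adjusted p = 0.00291). It was −3.38 ± 0.62 for Idh3a (limma adjusted p = 0.00864) and −2.11 ± 0.39 for Dlst (limma adjusted p = 0.0119). With a library left out, Dlst ran over −2.45 to −1.75 and Idh3a over −3.95 to −2.79. With the lymphocyte sum as a covariate, chosen after seeing the data, Dlat, Idh3a and Dlst lost their calls in mouse sWAT. Lymphocyte content and temperature cannot be told apart in that depot.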

How the results depend on the processing

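Of 120 changes of members, 48 were called, and 0 of these turned their direction under any alternative. In bat iBAT in the cold, 0 members were called with a pseudocount of 0.1 and 0 with no filter, against 2 with limma-trend. Mouse iBAT over sWAT at 10 °C gave 5 with median-ratio scaling. The cold change of bat over mouse iBAT gave 0 with median-ratio scaling and 0 with quantile normalization. Mouse iBAT in the cold gave 1 with quantile normalization. With covariates chosen after seeing the data, mouse iBAT in the cold gave 1 (muscle), mouse sWAT in the cold 1 (lymphocytes), and mouse iBAT over sWAT 3 at 30 °C and 0 at 10 °C (lymphocytes). The cause was not tested.

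The labels do not say whether libraries of different depots came from 1 animal. Deviations of same-sex libraries correlated at 0.26 to 0.547 in all 8 pairs of depots at 1 temperature, but at −0.017 to 0.466 (mouse, 4 pairs of groups) and −0.192 to 0.052 (bat, 9) across temperatures. With sex as a replicate block, 2 members were called in bat iBAT in the cold, 6 in bat aWAT in the cold and 6 for bat iBAT over aWAT at 30 °C, and no other count of members changed. With sex within temperature as a replicate block, chosen after seeing the data, 2 members were called for mouse iBAT over sWAT at 10 °C, 6 for bat iBAT over aWAT at 30 °C and 6 for bat aWAT over sWAT at 10 °C, and the other 8 counts between depots kept their values.

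Leaving out each library in turn left 1 library in a group, assumed to vary like the others. The counts of members ran over 0 to 0 for the cold in mouse iBAT, 2 to 6 in mouse sWAT, 0 to 0 in bat iBAT and 3 to 5 in bat aWAT. They ran over 0 to 5 for mouse iBAT over sWAT at 10 °C, 2 to 5 for bat iBAT over sWAT and 2 to 4 for bat iBAT over aWAT at 30 °C, and 3 to 4 for bat aWAT over sWAT and 5 to 5 for bat iBAT over sWAT at 10 °C. They ran over 0 to 4 for the cold change of mouse sWAT over iBAT and 0 to 1 for that of bat over mouse iBAT.

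Some changes without a call crossed 0. For bat aWAT over sWAT at 30 °C, Dlst was at −0.0006 with a pseudocount of 0.1 and −0.0051 with median-ratio scaling, and Idh3a at 0.008 with no filter. Idh3a was at −0.0412 and −0.04 with the same pseudocount and scaling for bat over mouse iBAT. Suclg2 was at −0.032 with no filter for bat iBAT over aWAT at 10 °C, and Idh2 at −0.0675 with the lymphocyte covariate for mouse iBAT over sWAT at 10 °C. With libraries left out, the cold change in bat sWAT ran over −0.0672 to 0.2493 for Dlat, −0.4627 to 0.6386 for Idh3a, −0.1468 to 1.0975 for Idh2 and −0.0132 to 0.3644 for Suclg2. Bat aWAT over sWAT at 30 °C ran over −0.1454 to 0.6562 for Pdhb, −0.2454 to 0.4922 for Dlat, −0.6759 to 0.6395 for Idh3a, −0.5365 to 0.7216 for Idh2 and −0.3442 to 0.3890 for Dlst. Suclg2 ran over −0.3903 to 0.1105 for bat iBAT over sWAT at 30 °C, −0.1374 to 0.2046 for bat iBAT over aWAT at 10 °C and −0.0234 to 0.1855 for male over female mice. Idh2 ran over −1.1064 to 0.1630 for the cold change of bat sWAT over iBAT, and Idh3a over −0.168 to 0.2281 for bat over mouse iBAT. Male over female bats ran over −0.0735 to 0.2440 for Pdhb and −0.1162 to 0.1800 for Dlat.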
